A study of Mus musculus with 23 samples.

Results

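The 9 genes described here, Bgn, Dcn, Fmod, Lum, Acan, Vcan, Cspg4, Sdc1 and Gpc1, encode the core proteins of matrix and cell-surface proteoglycans. They were chosen by name from the 36793 genes of the deposited tables and were followed in all 23 RNA-seq libraries of a mouse head and neck tumour study. The libraries fall into 8 groups. Colonies came from SCCVII tumours (2 libraries) and from HPV-negative MEER tumours (3 libraries). Macrophages came from SCCVII, HPV-positive MEER and HPV-negative MEER tumours, with 3 libraries each. The cultured SCCVII, HPV-positive MEER and HPV-negative MEER lines gave 3 libraries each. SCCVII and MEER are mouse head and neck tumour lines, and the labels list SCCVII as HPV negative too. MEER tumours grew under the skin of C57/Bl6 mice and SCCVII tumours in C3H/HeJ mice, so tumour model and mouse strain cannot be told apart in any comparison of SCCVII with MEER tissue. Macrophages were sorted as CD45+ CD11b+ Gr1- F4/80hi cells, and each library pooled 3 to 4 mice. Colonies grew for 9 days from such sorted macrophages in a medium for haematopoietic stem cells. Line libraries were 3 replicate aliquots of each cultured line, so p-values for the lines measure the spread between aliquots, which may be technical. That spread also enters the p-values of macrophages or colonies set against lines, and of tests that combine macrophages and lines. No genetic alteration or drug treatment is named for any group.

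Proteoglycans are proteins that carry long sulphated sugar chains, the glycosaminoglycans. Small leucine-rich members sit on collagen fibrils and can bind growth factors such as TGF-beta. The large aggregating members bind hyaluronan and swell the matrix with water. Membrane-bound members, the syndecans, the glypicans and Cspg4 (NG2), act mostly as co-receptors at the cell surface. In tumours these genes are best known from fibroblasts, pericytes and carcinoma cells, and macrophages are known for versican and for the intracellular proteoglycan serglycin.

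Levels are given as CPM, counts scaled to library size, after TMM scaling over the 23 libraries, and summed expected counts ran between 26848759 and 47609481 per library. Adjusted p-values are from edgeR's quasi-likelihood test with Benjamini-Hochberg adjustment over all genes tested, and a gene is called where it is at or below 0.05. A macrophage marker list summed to 10850 to 21590 CPM in the 9 macrophage libraries and to 18.4 to 46.7 CPM in the 9 line libraries. The colony libraries, labelled as macrophage progenitor colonies, varied widely in their markers. Their macrophage sums were 14220 and 1183 CPM in SCCVII colonies and 12740, 905.6 and 65.2 CPM in HPV-negative MEER colonies. Ptprc, which encodes the pan-leukocyte antigen CD45, was at 3.78 to 113 CPM in SCCVII colonies and at 0.392 to 149 CPM in HPV-negative MEER colonies. The fibroblast marker list summed to 2547 to 4566 CPM in SCCVII colonies and to 1182 to 2257 CPM in HPV-negative MEER colonies, against 19.2 to 20.7 CPM in SCCVII macrophages and 38.2 to 156 CPM in HPV-negative MEER macrophages, and against 2760 to 2906 CPM in the SCCVII line and 90.3 to 163 CPM in the HPV-negative MEER line. Progenitor markers summed to 976 and 1117 CPM in SCCVII colonies, against 3.47 to 5.38 CPM in SCCVII macrophages and 955 to 984 CPM in the SCCVII line, nearly all of it Cd34 in colonies and line. They summed to 120, 17.4 and 23.6 CPM in HPV-negative MEER colonies, against 6.88 to 8.23 CPM in HPV-negative MEER macrophages and 24.3 to 34.4 CPM in the HPV-negative MEER line. Of the 8 genes of the fibroblast list, 6 averaged at least 1 CPM in each colony group, while Thy1 was at or below 0.255 CPM in all 5 colony libraries. What part these cell types had in the colony results was not tested. The HPV-negative MEER colonies were deposited in a table of their own, so their handling cannot be told apart from their group. In these bulk libraries, fewer cells of a type and less RNA per cell cannot be told apart.

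Promoter sequences are shown for the 4 genes whose levels separated the tumour models most widely, Bgn, Fmod, Acan and Cspg4, picked after their values were seen. Each run is the RefSeq window on GRCm38.p6, 250 bases before to 50 after the annotated start, read 5′ to 3′ on the plus strand. Capitals mark GC boxes (GGGCGG, or CCGCCC on the other strand).
Bgn: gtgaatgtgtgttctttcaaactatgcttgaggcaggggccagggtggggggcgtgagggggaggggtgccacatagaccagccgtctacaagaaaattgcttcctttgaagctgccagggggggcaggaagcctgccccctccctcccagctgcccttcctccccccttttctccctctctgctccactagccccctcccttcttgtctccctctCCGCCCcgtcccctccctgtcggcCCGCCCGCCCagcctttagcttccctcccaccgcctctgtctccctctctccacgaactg
Fmod: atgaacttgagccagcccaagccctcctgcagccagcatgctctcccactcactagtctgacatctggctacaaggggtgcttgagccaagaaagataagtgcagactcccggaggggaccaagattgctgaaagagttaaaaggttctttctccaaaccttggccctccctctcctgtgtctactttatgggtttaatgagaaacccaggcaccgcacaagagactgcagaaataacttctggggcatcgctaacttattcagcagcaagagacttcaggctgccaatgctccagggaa
Acan: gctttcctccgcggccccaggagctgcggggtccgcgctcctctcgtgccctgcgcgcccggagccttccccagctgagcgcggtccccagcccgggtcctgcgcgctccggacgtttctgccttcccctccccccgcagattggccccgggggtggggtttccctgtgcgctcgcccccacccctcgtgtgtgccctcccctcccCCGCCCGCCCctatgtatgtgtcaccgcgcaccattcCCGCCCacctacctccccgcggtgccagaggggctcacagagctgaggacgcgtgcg
Cspg4: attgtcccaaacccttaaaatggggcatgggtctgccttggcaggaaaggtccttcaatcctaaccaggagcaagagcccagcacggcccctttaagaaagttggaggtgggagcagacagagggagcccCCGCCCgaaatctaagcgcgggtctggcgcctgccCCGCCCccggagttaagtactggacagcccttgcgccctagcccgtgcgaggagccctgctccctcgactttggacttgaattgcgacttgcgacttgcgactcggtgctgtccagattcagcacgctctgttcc

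Biglycan's window lies at chrX:73483351-73483650, Fmod's at chr1:134037004-134037303, Acan's at chr7:79052976-79053275 and Cspg4's at chr9:56864854-56865153. GC content was 63.7% for Bgn, 51.0% for Fmod, 74.0% for Acan and 60% for Cspg4, against a median of 52.7% over 32851 RefSeq windows. Fmod's window held 0 GC boxes, Bgn's and Acan's held 3 each with 2 of them overlapping, and Cspg4's held 2. A GC box stood in 35.7% of all windows. TATAAA stood in 13.6% and the AP-1 site TGANTCA in 7.81% of all windows, counting both strands. None of the 6 members with a window (these 4, Vcan and Sdc1) held either of these last motifs. These matches describe letters in 300 bases and were not tested against expression.

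**Figure D1:**
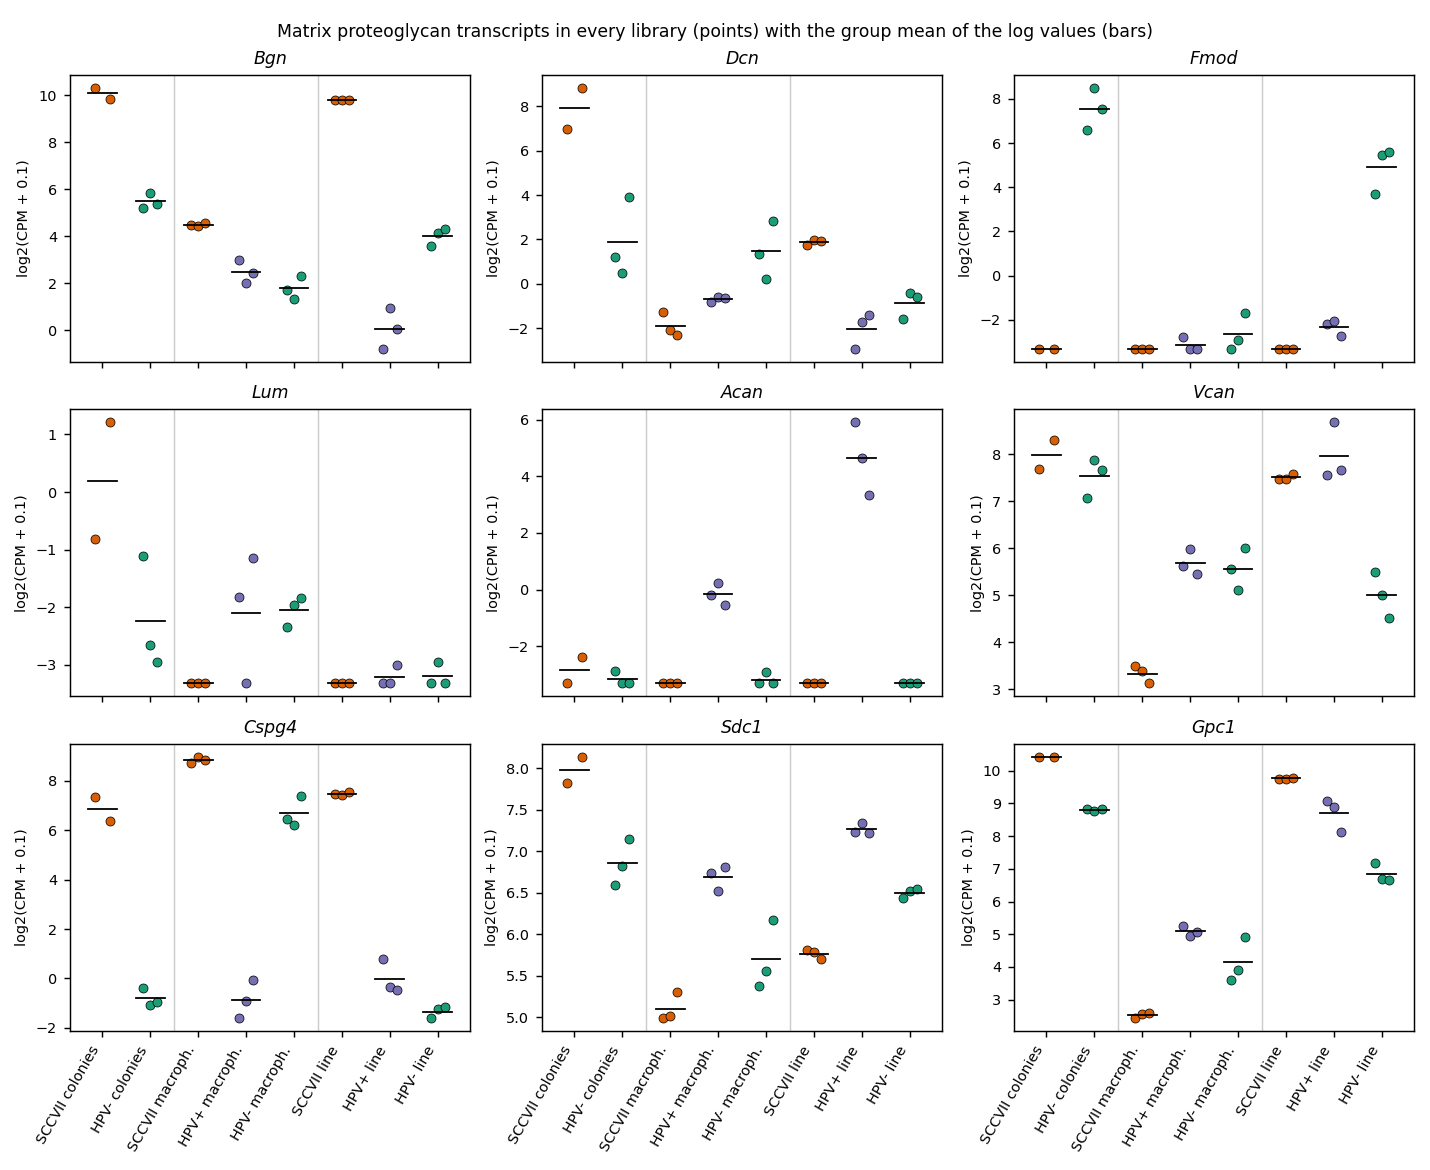
Level of each of the 9 proteoglycan genes in each library, as log2(CPM + 0.1), by group, with points coloured by tumour model (orange SCCVII, purple HPV-positive MEER, green HPV-negative MEER) and bars at the mean of the log values. Bgn is high in SCCVII colonies and lines, Cspg4 in all SCCVII groups and in HPV-negative MEER macrophages, Fmod in HPV-negative MEER colonies and line, and Acan in the HPV-positive MEER line.

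Bgn (biglycan, ENSMUSG00000031375, chrX:73483602-73495933, GRCm38) encodes a small leucine-rich proteoglycan of the pericellular matrix that can also signal through Toll-like receptors. The SCCVII line held 900, 894 and 893 CPM, the HPV-positive MEER line 0.480, 1.83 and 0.956 CPM, and the HPV-negative MEER line 11.8, 17.4 and 19.7 CPM. The 3 lines did not overlap, and their order was SCCVII, HPV-negative MEER, HPV-positive MEER. The log2 difference was 5.68 ± 0.31 (SE, edgeR adjusted p = 2.09e-07) for SCCVII over HPV-negative MEER and -3.91 ± 0.33 (edgeR adjusted p = 1.09e-05) for HPV-positive over HPV-negative MEER. Macrophages were low throughout. SCCVII macrophages held 22.3, 21.5 and 23.8 CPM, HPV-positive MEER macrophages 7.92, 3.99 and 5.26 CPM, and HPV-negative MEER macrophages 3.17, 2.46 and 4.92 CPM. SCCVII macrophages lay above both MEER groups, which overlapped each other. The log2 difference was 2.65 ± 0.29 over HPV-negative MEER macrophages (edgeR adjusted p = 0.000105) and 1.93 ± 0.28 over HPV-positive MEER macrophages (edgeR adjusted p = 0.000221). Between HPV-positive and HPV-negative MEER macrophages it was 0.72 ± 0.29 and missed the threshold (edgeR adjusted p = 0.0657), but it passed in a fit with a replicate block, given at the end.

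In the colonies Bgn stood at 1281 and 906 CPM for SCCVII and at 37.1, 57.8 and 41.5 CPM for HPV-negative MEER. Each colony group was far above the macrophages of its own tumour, by 5.60 ± 0.33 on the log2 scale for SCCVII (edgeR adjusted p = 4.87e-06) and by 3.67 ± 0.29 for HPV-negative MEER (edgeR adjusted p = 4.41e-05). Against the line of the same tumour, the difference was 0.37 in SCCVII colonies (edgeR adjusted p = 0.229) and 1.45 ± 0.22 in HPV-negative MEER colonies (edgeR adjusted p = 0.000608). SCCVII colonies exceeded HPV-negative MEER colonies by 4.59 ± 0.31 (edgeR adjusted p = 2.68e-05). Over all 8 groups, the order of means was SCCVII colonies, SCCVII line, HPV-negative MEER colonies, SCCVII macrophages, HPV-negative MEER line, HPV-positive MEER macrophages, HPV-negative MEER macrophages and HPV-positive MEER line. Only the 2 MEER macrophage groups overlapped as neighbours in that order.

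Dcn (decorin, ENSMUSG00000019929, chr10:97479609-97518143) encodes a collagen-binding proteoglycan best known from fibroblasts. It was abundant in SCCVII colonies alone, at 127 and 461 CPM. HPV-negative MEER colonies held 2.24, 1.32 and 15.1 CPM, the SCCVII line 3.28, 3.77 and 3.68 CPM, and HPV-negative MEER macrophages 2.40, 1.06 and 7.04 CPM. All libraries of the other 4 groups held at most 0.641 CPM. The colonies varied widely within a group, and HPV-negative MEER colonies overlapped both the SCCVII line and HPV-negative MEER macrophages. SCCVII colonies exceeded HPV-negative MEER colonies by 5.61 ± 1.17 on the log2 scale (edgeR adjusted p = 0.00552), which became 7.26 without HPV-negative MEER colony 3, 6.27 without SCCVII colony 1 and 4.38 without SCCVII colony 2. They exceeded SCCVII macrophages by 10.64 ± 1.5 (edgeR adjusted p = 0.000432) and the SCCVII line by 6.46 ± 1.00 (edgeR adjusted p = 0.000782). Without SCCVII colony 1 or 2 these differences were 11.30 or 9.41 against macrophages and 7.13 or 5.15 against the line, and without SCCVII macrophage 1 the difference from macrophages was 11.25. HPV-negative MEER colonies exceeded their line by 3.62 ± 0.95 (edgeR adjusted p = 0.0102), or by 1.91 without colony 3 (edgeR adjusted p = 0.0264). Against HPV-negative MEER macrophages the difference was 0.77 (edgeR adjusted p = 0.503).

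Dcn was lower in macrophages of both other tumours than in HPV-negative MEER macrophages. SCCVII macrophages held 0.308, 0.132 and 0.102 CPM and HPV-positive MEER macrophages 0.461, 0.564 and 0.549 CPM. Neither group overlapped HPV-negative MEER macrophages. The log2 difference from HPV-negative MEER macrophages was -4.27 ± 0.74 for SCCVII (edgeR adjusted p = 0.00164) and -2.71 ± 0.67 for HPV-positive MEER (edgeR adjusted p = 0.00853). Library 4 of the HPV-negative MEER macrophages held the most Dcn and the highest fibroblast and pericyte marker sums of its group (156 and 33.8 CPM), and the part these cells play was not tested. Without it the differences were -3.24 for SCCVII and -1.68 for HPV-positive MEER (edgeR adjusted p = 0.0128), and without SCCVII macrophage 1 the SCCVII difference was -4.87. SCCVII and HPV-positive MEER macrophages differed by -1.56 ± 0.77 (edgeR adjusted p = 0.105).

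In the lines Dcn was higher in SCCVII, by 2.78 ± 0.49 over HPV-negative MEER (edgeR adjusted p = 0.000699) and by 4.26 ± 0.55 over HPV-positive MEER (edgeR adjusted p = 6.73e-05). The SCCVII line stood above both MEER lines in every aliquot. Macrophages and lines ordered the models differently, since the log2 change of Dcn in macrophages against the line was -4.14 ± 0.70 in SCCVII (edgeR adjusted p = 5.54e-05) and 2.97 ± 0.62 in HPV-negative MEER (edgeR adjusted p = 0.000389). Without SCCVII macrophage 1 the SCCVII value was -4.75, and without HPV-negative MEER macrophage 4 the MEER value was 1.96.

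Lum (lumican, ENSMUSG00000036446, chr10:97565128-97572703), a keratan sulphate proteoglycan of collagen fibrils, was close to absent. It reached 0.469 and 2.22 CPM in the 2 SCCVII colonies and at most 0.364 CPM in any other library, with 0 counts in all SCCVII macrophage and line libraries. Lum passed the filter on low counts only in the fits that held colonies, and there only through SCCVII colonies. The direction of their differences from other groups was therefore set by the filter. SCCVII colonies were at least 43.2-fold higher than SCCVII macrophages (edgeR adjusted p = 0.00496) and at least 47.5-fold higher than the SCCVII line (edgeR adjusted p = 0.00506). These bounds set 3 counts over the 3 libraries of the group at 0. They rested on colony 2. Without it they were 13.9-fold (edgeR adjusted p = 0.028) and 15.3-fold (edgeR adjusted p = 0.0299), and without colony 1 they were 65.7-fold and 72.3-fold. Leaving out 1 library at 0 lowers such a bound through depth alone, here to 28.5-fold and 30.4-fold at the lowest. Against HPV-negative MEER colonies the log2 difference was 3.00 and missed the threshold (edgeR adjusted p = 0.0519).

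Fmod (fibromodulin, ENSMUSG00000041559, chr1:134037254-134048277), which regulates collagen fibril assembly, was expressed in HPV-negative MEER colonies and line, but hardly in the macrophages sequenced after sorting. HPV-negative MEER colonies held 96.8, 366 and 189 CPM and the HPV-negative MEER line 12.8, 43.9 and 49.1 CPM. The HPV-positive MEER line held 0.120, 0.143 and 0.0503 CPM. All 8 SCCVII libraries had 0 counts, so none of the 3 SCCVII groups overlapped an HPV-negative MEER colony or line library. Macrophages had next to none, with 1 count over the HPV-positive and 8 counts over the HPV-negative MEER libraries, 7 of the 8 in library 4. Fmod was at least 3868-fold lower in SCCVII than in HPV-negative MEER colonies (edgeR adjusted p = 0.00107) and at least 1202-fold lower in the SCCVII than in the HPV-negative MEER line (edgeR adjusted p = 1.18e-05). With 1 library left out these bounds were 1680-fold to 5473-fold in colonies, lowest without SCCVII colony 2, and 769.7-fold to 1519-fold in lines, lowest without SCCVII line aliquot 1. The HPV-positive line lay below the HPV-negative line, with a log2 change of -8.39 ± 0.70 (edgeR adjusted p = 3.52e-05). Colonies exceeded the HPV-negative MEER line by 2.58 ± 0.63 (edgeR adjusted p = 0.0131). They exceeded HPV-negative MEER macrophages by 11.27 ± 1.04 (edgeR adjusted p = 0.000333), and those macrophages lay below their line with a log2 change of -8.56 ± 0.77 (edgeR adjusted p = 5.59e-07). Without macrophage library 4 these last values were 13.46 and -10.68. Fmod passed the filter on low counts only through HPV-negative MEER colonies or line, so the direction of their differences from other groups was set by the filter.

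Acan (aggrecan, ENSMUSG00000030607, chr7:79053483-79115099) encodes the large hyaluronan-binding proteoglycan of cartilage. It was a transcript of HPV-positive MEER samples. The HPV-positive MEER line held 60.6, 24.9 and 10.1 CPM and HPV-positive MEER macrophages 0.783, 1.08 and 0.588 CPM. The other 6 groups had 0 counts in SCCVII macrophages, the SCCVII line and the HPV-negative MEER line, 3 counts in SCCVII colonies, 2 in HPV-negative MEER colonies and 1 in HPV-negative MEER macrophages, each summed over the group. No HPV-positive library overlapped any library of another tumour. The HPV-positive line was at least 1071-fold higher than the HPV-negative line (edgeR adjusted p = 0.000607), and the SCCVII line at least 990.7-fold lower than the HPV-positive line (edgeR adjusted p = 0.000315). SCCVII macrophages were at least 24.0-fold lower than HPV-positive MEER macrophages (edgeR adjusted p = 0.000361). HPV-positive and HPV-negative MEER macrophages had 57 and 1 counts in all, a difference that passed the test (edgeR adjusted p = 0.00092) and for which no fold is given. In macrophages and lines Acan passed the filter on low counts only through HPV-positive libraries. The direction of these differences between tumours was therefore set by the filter. The macrophages lay below the line of the same HPV-positive tumour, with a log2 change of -5.12 ± 0.66 (edgeR adjusted p = 4.04e-05), or -4.25 without line aliquot 1, the highest of the 3. Without that aliquot the bounds were 597.6-fold against the HPV-negative line (edgeR adjusted p = 0.000196) and 552.9-fold against the SCCVII line (edgeR adjusted p = 8.66e-05). Leaving out any other library gave bounds of 656.4-fold to 1488-fold, 634.5-fold to 1377-fold and, for SCCVII against HPV-positive MEER macrophages, 15.8-fold to 27.8-fold. Epithelial markers summed to 425 to 554 CPM in HPV-positive MEER macrophages, against 75.3 to 145 CPM in HPV-negative MEER macrophages. Of the 8 genes of that list, 4 averaged at least 1 CPM in HPV-positive MEER macrophages, where Krt17 and Trp63 had 0 counts. In HPV-negative MEER macrophages 3 did, and Krt5 had 0 counts. The part of tumour cell RNA in the Acan counts was not tested.

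Vcan (versican, ENSMUSG00000021614, chr13:89655312-89742509, minus strand) encodes the hyaluronan-binding proteoglycan of provisional and tumour matrix. It was present in every library. SCCVII macrophages held 11.1, 10.4 and 8.63 CPM, HPV-positive MEER macrophages 49.5, 62.8 and 43.6 CPM, and HPV-negative MEER macrophages 47.3, 34.3 and 63.7 CPM. SCCVII macrophages lay below both MEER groups, which overlapped. The log2 change was -2.29 ± 0.24 against HPV-negative (edgeR adjusted p = 7.73e-05) and -2.41 ± 0.24 against HPV-positive MEER macrophages (edgeR adjusted p = 1.70e-05). Between the MEER groups it was 0.12 (edgeR adjusted p = 0.667).

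The order differed in the lines, where Vcan stood at 178, 178 and 191 CPM in SCCVII, 189, 411 and 201 CPM in HPV-positive MEER and 45.0, 31.9 and 23.0 CPM in HPV-negative MEER. The HPV-negative line was lowest and the other lines overlapped. Vcan was higher by 2.36 ± 0.32 in SCCVII (edgeR adjusted p = 0.000117) and by 2.99 ± 0.33 in HPV-positive MEER (edgeR adjusted p = 5.11e-05) than in HPV-negative MEER, and SCCVII and HPV-positive MEER differed by -0.64 ± 0.30 (edgeR adjusted p = 0.0876). SCCVII colonies held 204 and 314 CPM and HPV-negative MEER colonies 134, 233 and 202 CPM. These overlapped, at a log2 difference of 0.47 (edgeR adjusted p = 0.244). Colonies exceeded macrophages by 4.69 ± 0.33 in SCCVII (edgeR adjusted p = 1.18e-05) and by 1.94 ± 0.28 in HPV-negative MEER (edgeR adjusted p = 0.000518). Against the lines, HPV-negative MEER colonies were higher by 2.48 ± 0.29 (edgeR adjusted p = 0.000147), and SCCVII colonies differed by 0.60 (edgeR adjusted p = 0.125).

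Vcan transcripts are spliced into long forms, which carry the large glycosaminoglycan-bearing exons, and short forms without them. The deposited transcript length, weighted by the estimated abundance of each isoform, was 3808 and 4131 bases in SCCVII colonies and 5743, 7092 and 8439 bases in HPV-negative MEER colonies. It was 7828, 6817 and 4015 bases in SCCVII macrophages, 6088, 6577 and 6399 bases in HPV-positive MEER macrophages and 6473, 6261 and 6507 bases in HPV-negative MEER macrophages. All 9 line libraries lay between 7608 and 9450 bases. SCCVII colonies stood below all aliquots of the SCCVII line (8370 to 9264 bases) in Vcan transcript length. These lengths are isoform estimates from the quantification, were given no test, and do not show which isoforms were used. A gene annotated on the other strand of the Vcan locus, Gm4117, had 4 to 485 counts per library where Vcan had 253 to 14331, and reads of the pair can be told apart only with a strand setting, which the sources used here do not give.

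**Figure D2:**
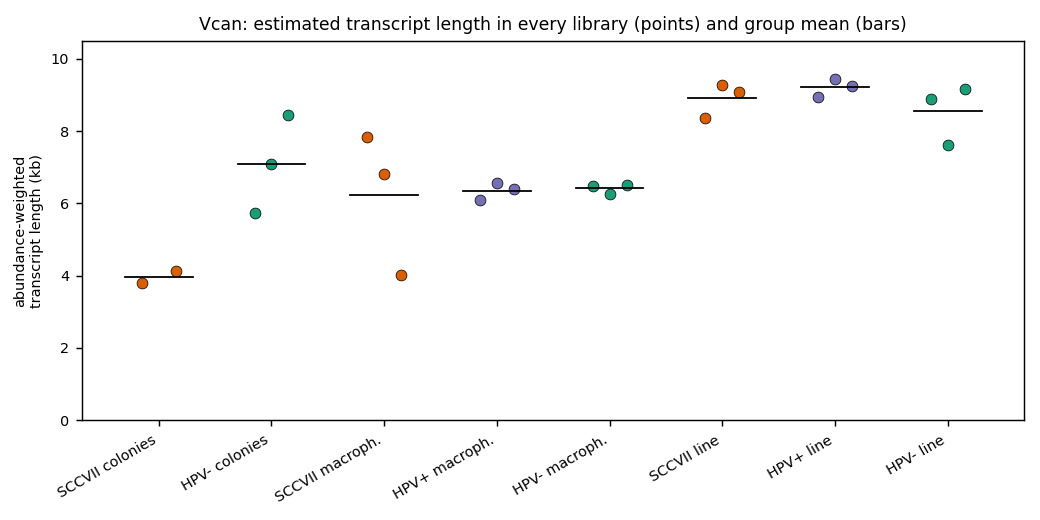
Abundance-weighted Vcan transcript length in kilobases, as deposited, in each library (points, coloured by tumour model) with the group mean (bars). Both SCCVII colonies, at 3808 and 4131 bases, lie below every line library, all of which are at 7608 bases or more.

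Cspg4 (NG2, ENSMUSG00000032911, chr9:56865033-56899870) encodes a transmembrane chondroitin sulphate proteoglycan known from pericytes, glial progenitors and some tumour cells. It gave the widest fitted difference between macrophage groups. SCCVII macrophages held 422, 506 and 457 CPM and HPV-negative MEER macrophages 88.3, 73.5 and 167 CPM. HPV-positive MEER macrophages held 0.230, 0.434 and 0.863 CPM, and the 3 groups did not overlap. The log2 difference was 9.73 ± 0.47 for SCCVII over HPV-positive MEER macrophages (edgeR adjusted p = 1.80e-07), 2.05 ± 0.29 for SCCVII over HPV-negative MEER macrophages (edgeR adjusted p = 0.000474) and -7.67 ± 0.46 for HPV-positive over HPV-negative MEER macrophages (edgeR adjusted p = 2.52e-06). Without HPV-positive MEER macrophage 3 the differences that involve it were 10.37 and -8.31.

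The 8 genes of the pericyte and smooth muscle marker list were low in all 3 macrophage groups. Their sum was 9.38 to 10.8 CPM in SCCVII macrophages, 7.10 to 8.75 CPM in HPV-positive MEER macrophages, and 8.71, 12.1 and 33.8 CPM in HPV-negative MEER macrophages. Most of the SCCVII sum was the smooth muscle actin gene Acta2, which stood at 7.81 to 9.45 CPM in SCCVII, 3.77 to 5.76 CPM in HPV-positive MEER and 5.83 to 14.9 CPM in HPV-negative MEER macrophages. In SCCVII macrophages Pdgfrb was at 0.582 to 0.887 CPM, Kcnj8 at 0 and each of the other 5 genes at or below 0.308 CPM. The part of such cells in the Cspg4 levels was not tested. In HPV-negative MEER macrophages Pdgfrb reached 17.2 CPM, in library 4, where Cspg4 was also highest.

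Of the lines, the SCCVII line held 178, 173 and 187 CPM of Cspg4, the HPV-positive MEER line 1.62, 0.688 and 0.629 CPM and the HPV-negative MEER line 0.230, 0.321 and 0.343 CPM. SCCVII stood far above both MEER lines, which did not overlap each other. Its log2 difference was 9.09 ± 0.32 over HPV-negative MEER (edgeR adjusted p = 1.08e-08) and 7.44 ± 0.29 over HPV-positive MEER (edgeR adjusted p = 1.26e-08), and HPV-positive exceeded HPV-negative MEER by 1.65 ± 0.40 (edgeR adjusted p = 0.00669). HPV-negative MEER macrophages exceeded their own line by 8.60 ± 0.43 (edgeR adjusted p = 3.16e-11) and SCCVII macrophages theirs by 1.5 ± 0.27 (edgeR adjusted p = 0.00011). HPV-positive MEER macrophages and line differed by -0.71 (edgeR adjusted p = 0.236). Colonies held 163 and 83.0 CPM in SCCVII and 0.673, 0.380 and 0.422 CPM in HPV-negative MEER. HPV-negative MEER colonies had almost none of the Cspg4 seen in the sorted macrophages, at a log2 change of -7.77 ± 0.50 (edgeR adjusted p = 2.35e-05), and lay within 0.72 of their line (edgeR adjusted p = 0.109). SCCVII colonies were also below macrophages, at -1.92 ± 0.44 (edgeR adjusted p = 0.00555), and differed from their line by -0.47 (edgeR adjusted p = 0.186). SCCVII exceeded HPV-negative MEER colonies by 7.92 ± 0.51 (edgeR adjusted p = 1.94e-05).

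Sdc1 (syndecan-1, CD138, ENSMUSG00000020592, chr12:8771323-8793715) encodes a heparan sulphate proteoglycan of epithelial and plasma cells. It varied least of the 9 genes. SCCVII macrophages held 31.8, 32.2 and 39.6 CPM, HPV-positive MEER macrophages 107, 91.5 and 112 CPM, and HPV-negative MEER macrophages 41.5, 47.2 and 72.0 CPM. The 3 groups did not overlap, and the order was HPV-positive MEER, HPV-negative MEER, SCCVII. Sdc1 was higher by 0.97 ± 0.19 in HPV-positive than in HPV-negative MEER macrophages (edgeR adjusted p = 0.00249). The log2 change of SCCVII macrophages was -1.63 ± 0.20 against HPV-positive (edgeR adjusted p = 6.41e-05) and -0.66 ± 0.19 against HPV-negative MEER macrophages (edgeR adjusted p = 0.0233). The last of these missed the threshold without SCCVII macrophage 1 (edgeR adjusted p = 0.083) or 2 (edgeR adjusted p = 0.0801). Plasma and B cell markers summed to at most 14.3 CPM in any macrophage library, and epithelial markers to 106 to 129 CPM in SCCVII, 425 to 554 CPM in HPV-positive MEER and 75.3 to 145 CPM in HPV-negative MEER macrophages. Of the epithelial markers, Krt17 and Trp63 had 0 counts in HPV-positive MEER, Trp63 in SCCVII and Krt5 in HPV-negative MEER macrophages. The part of epithelial RNA in these Sdc1 levels was not tested.

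The lines kept the same order with smaller errors, at 56.0, 55.0 and 52.2 CPM of Sdc1 in SCCVII, 151, 162 and 149 CPM in HPV-positive MEER and 86.8, 92.1 and 93.1 CPM in HPV-negative MEER. No aliquots of different lines overlapped. The log2 difference was 0.75 ± 0.08 for HPV-positive over HPV-negative MEER (edgeR adjusted p = 4.96e-05) and -0.83 ± 0.08 for SCCVII over HPV-negative MEER (edgeR adjusted p = 1.27e-05). Colonies held 226 and 282 CPM in SCCVII and 96.9, 113 and 141 CPM in HPV-negative MEER. SCCVII colonies exceeded their macrophages by 2.88 ± 0.25 (edgeR adjusted p = 3.42e-05) and their line by 2.31 ± 0.16 (edgeR adjusted p = 2.11e-05), although SCCVII had less Sdc1 than HPV-negative MEER in macrophages and line. HPV-negative MEER colonies exceeded their macrophages by 1.11 ± 0.22 (edgeR adjusted p = 0.00267) and differed from their line by 0.34 (edgeR adjusted p = 0.0716).

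Gpc1 (glypican-1, ENSMUSG00000034220, chr1:92831645-92860779) encodes a lipid-anchored heparan sulphate proteoglycan that presents growth factors to their receptors. It was high in colonies and lines and low in macrophages of all 3 tumours. SCCVII macrophages held 5.34, 5.82 and 5.90 CPM, HPV-positive MEER macrophages 38.4, 31.1 and 33.7 CPM, and HPV-negative MEER macrophages 12.0, 15.04 and 30.1 CPM. SCCVII macrophages were lowest, and the 3 groups did not overlap. Their log2 change was -1.77 ± 0.31 against HPV-negative (edgeR adjusted p = 0.00161) and -2.64 ± 0.31 against HPV-positive MEER macrophages (edgeR adjusted p = 5.70e-05). HPV-positive exceeded HPV-negative MEER macrophages by 0.87 ± 0.29 (edgeR adjusted p = 0.0302), which missed the threshold without HPV-negative MEER macrophage 1 (0.62, edgeR adjusted p = 0.0732) or 2 (0.72, edgeR adjusted p = 0.088), without HPV-positive MEER macrophage 1 (0.78, edgeR adjusted p = 0.0896) or 3 (0.89, edgeR adjusted p = 0.0656), and in a fit of the 2 groups alone (edgeR adjusted p = 0.072).

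The lines held 866, 858 and 881 CPM of Gpc1 in SCCVII, 543, 471 and 279 CPM in HPV-positive MEER and 144, 104 and 102 CPM in HPV-negative MEER. These groups did not overlap, and SCCVII, lowest among macrophages, was highest among lines. Gpc1 was higher by 2.80 ± 0.24 in SCCVII (edgeR adjusted p = 5.05e-06) and by 1.88 ± 0.23 in HPV-positive MEER (edgeR adjusted p = 0.000121) than in HPV-negative MEER. SCCVII colonies held 1364 and 1377 CPM and HPV-negative MEER colonies 459, 434 and 453 CPM. Both colony groups exceeded their macrophages, by 7.91 ± 0.40 in SCCVII (edgeR adjusted p = 3.28e-06) and by 4.54 ± 0.34 in HPV-negative MEER (edgeR adjusted p = 3.67e-05). They also exceeded their lines, by 0.75 ± 0.16 in SCCVII (edgeR adjusted p = 0.00459, or 0.0639 in a fit of all 23 libraries) and by 1.92 ± 0.15 in HPV-negative MEER (edgeR adjusted p = 2.79e-05). The gene shares its locus with Ankmy1, which had 0 to 14 counts per library where Gpc1 had 156 to 45904.

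The comparison within MEER sets HPV-positive against HPV-negative macrophages, where HPV status and any other difference between the lines cannot be told apart. Acan, Sdc1 and Gpc1 were higher and Dcn and Cspg4 lower in HPV-positive macrophages. These were 5 of the 7 members tested, with Fmod and Lum under the filter, and 48.7% of all genes tested were called. Acan passed the filter only through HPV-positive macrophages, so its direction was set by the filter. Marker lists differed between the same libraries. Macrophage markers summed to 10850 to 12290 CPM in HPV-positive and 17260 to 21470 CPM in HPV-negative MEER macrophages, endothelial markers to 141 to 169 CPM in HPV-positive and 19.5 to 37.8 CPM in HPV-negative MEER macrophages, and progenitor markers to 24.7 to 53.8 CPM in HPV-positive and 6.88 to 8.23 CPM in HPV-negative MEER macrophages. Epithelial markers, given above, were also higher in HPV-positive macrophages, and the HPV-positive line averaged 431 CPM of Gpc1 and 154 CPM of Sdc1. The part of these cell types in the member differences was not tested. Of 64 other genes of the pathway tested in this comparison, 22 were higher and 21 lower, with a median log2 change of 0.00 against -0.05 over all genes. Hyal1, a hyaluronidase, averaged 388 ± 117 CPM in HPV-positive and 17.6 ± 7.71 CPM in HPV-negative MEER macrophages (SD, n = 3 each), a log2 change of 4.48 ± 0.34 (edgeR adjusted p = 8.5e-06). Srgn, which encodes the granule proteoglycan serglycin, averaged 1289 ± 39.4 CPM in HPV-positive and 496 ± 35.8 CPM in HPV-negative MEER macrophages (edgeR log2 change 1.40, adjusted p = 1.2e-06). The collagenase Mmp13 averaged 2695 ± 772 CPM in HPV-positive and 192 ± 105 CPM in HPV-negative MEER macrophages (edgeR log2 change 3.84, adjusted p = 8.7e-05). The sulphotransferases moved both ways. Chst11 averaged 101 CPM and Hs3st3b1 129 CPM in HPV-positive MEER macrophages, against 15.8 and 13.0 CPM in HPV-negative MEER macrophages. Chst7 averaged 0.619 CPM in HPV-positive and 11.6 CPM in HPV-negative MEER macrophages (edgeR log2 change -4.20, adjusted p = 7.2e-06).

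SCCVII macrophages had more Bgn and Cspg4 and less Dcn, Vcan, Sdc1 and Gpc1 than HPV-negative MEER macrophages. That is 6 of 7 members tested, with 39.2% of all genes called, and Acan was at or under 3 counts in both groups. Against HPV-positive MEER macrophages, Bgn and Cspg4 were again higher and Acan, Vcan, Sdc1 and Gpc1 lower, 6 of 7 tested where 63.2% of all genes were called. Acan passed the filter only through HPV-positive MEER macrophages, so its direction was set by the filter. The 2 comparisons share the SCCVII libraries. All 8 proteoglycan-cleaving proteases tested passed in both, 2 higher and 6 lower each time, with list medians of -2.70 and -3.23 on the log2 scale against -0.02 and 0.01 over all genes. Mmp9 averaged 17.8 ± 6.69 CPM in SCCVII, 770 ± 188 CPM in HPV-positive MEER and 582 ± 203 CPM in HPV-negative MEER macrophages. Mmp13 averaged 2.01 CPM in SCCVII macrophages, and its log2 change was -6.60 ± 0.53 against HPV-negative MEER (edgeR adjusted p = 1.7e-05). The membrane-bound sheddases Adam17 and Adam10 were the 2 that were higher, with Adam17 at 411 ± 12.5 CPM in SCCVII and 296 ± 21.0 CPM in HPV-negative MEER macrophages (edgeR log2 change 0.45, adjusted p = 0.00082). The heparan sulphate sulphotransferase Ndst1 averaged 20.3 CPM in SCCVII, 422 CPM in HPV-positive MEER and 121 CPM in HPV-negative MEER macrophages. Among the other pathway genes, 38 of 64 passed against HPV-negative MEER (14 higher, 24 lower) and 50 of 64 against HPV-positive MEER (21 higher, 29 lower).

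**Figure D3:**
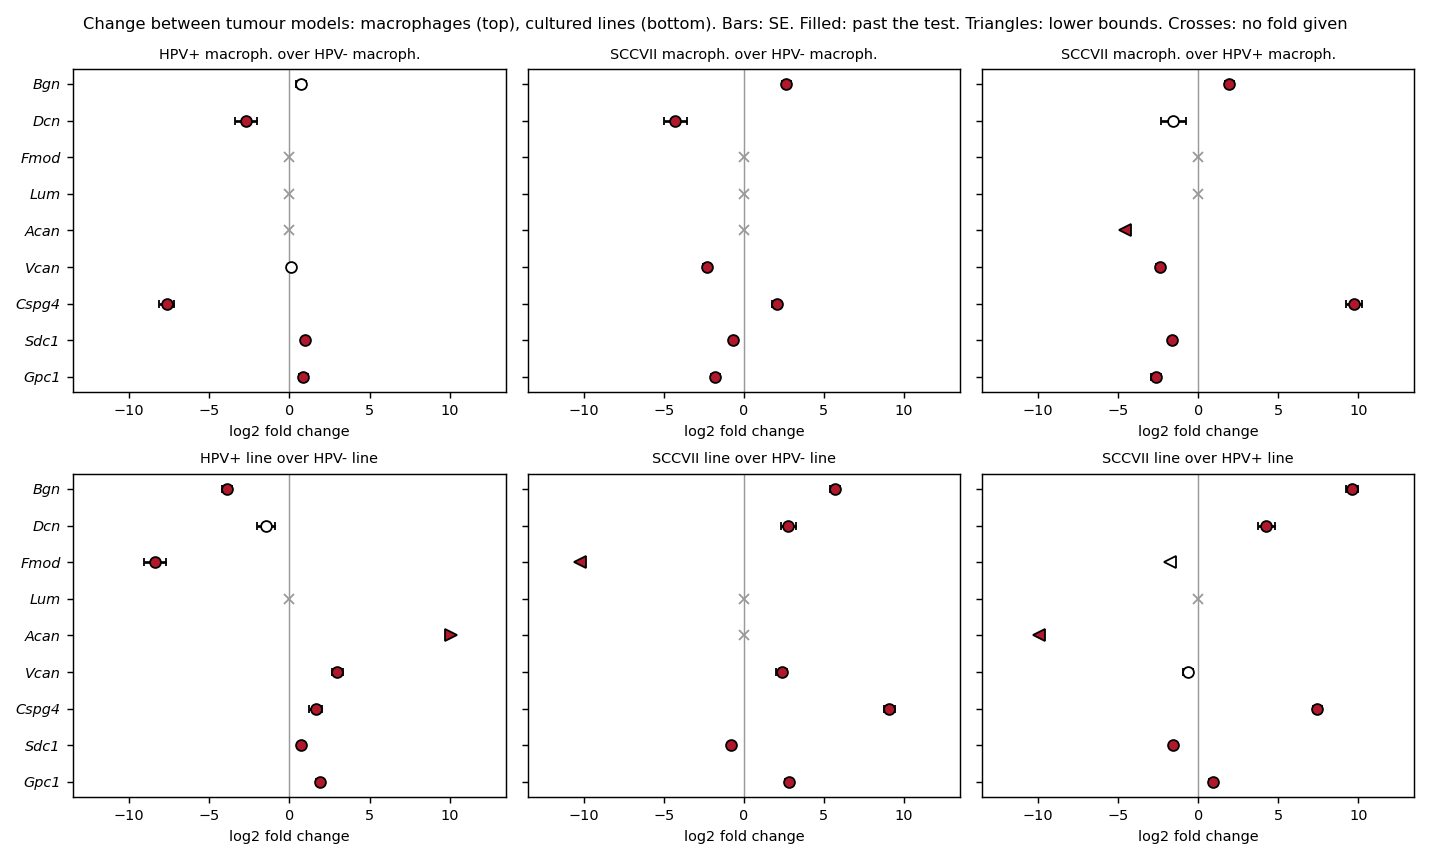
Log2 fold change of each member between tumour models in macrophages (top) and lines (bottom), with bars for the SE, filled points for those past the test, triangles for lower bounds against a group at 0 counts and crosses where no fold is given. Cspg4 changed by -7.67 and 9.73 in macrophages, and in lines Bgn by 9.59 for SCCVII over HPV-positive MEER and Cspg4 by 9.09 for SCCVII over HPV-negative MEER.

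Among the lines, HPV-positive exceeded HPV-negative MEER in Acan, Vcan, Cspg4, Sdc1 and Gpc1 and was lower in Bgn and Fmod, 7 of 8 members tested where 47.0% of all genes were called. The SCCVII line exceeded the HPV-negative MEER line in Bgn, Dcn, Vcan, Cspg4 and Gpc1 and was lower in Fmod and Sdc1, also 7 of 8, where 58.8% of all genes were called. Against the HPV-positive MEER line, SCCVII was higher in Bgn (9.59 ± 0.39), Dcn, Cspg4 and Gpc1 (0.92 ± 0.23) and lower in Acan and Sdc1 (-1.59 ± 0.08), 6 of 8 where 64.0% of all genes were called. Lum was under the filter in all 3. Acan passed it only through the HPV-positive and Fmod only through the HPV-negative MEER line, so their directions against those lines were set by the filter. Of the small leucine-rich relatives, 4 of 7 tested passed between the MEER lines, 0 higher and 4 lower, and all 7 passed between SCCVII and HPV-positive MEER, 4 higher and 3 lower. Ogn (osteoglycin) averaged 239 ± 9.43 CPM in the SCCVII line, 0.527 ± 0.226 CPM in the HPV-positive and 11.7 ± 8.01 CPM in the HPV-negative MEER line, a log2 change of 4.25 ± 0.53 for SCCVII over HPV-negative MEER (edgeR adjusted p = 6.8e-05). Prelp averaged 0.201 CPM in the HPV-positive and 35.0 CPM in the HPV-negative MEER line (edgeR log2 change -7.46, adjusted p = 4.5e-06). Has2, which makes hyaluronan, averaged 35.7 ± 19.7 CPM in the HPV-positive and 3.28 ± 0.844 CPM in the HPV-negative MEER line (edgeR log2 change 3.44, adjusted p = 9.8e-05). Gpc2 averaged 27.6 CPM in the HPV-positive and 0.221 CPM in the HPV-negative MEER line (edgeR log2 change 6.95, adjusted p = 9.3e-08), and the gelatinase Mmp2 averaged 400 CPM in the SCCVII and 1.56 CPM in the HPV-negative MEER line (edgeR log2 change 7.93, adjusted p = 3.5e-09). Prelp in the HPV-positive and Gpc2 in the HPV-negative MEER line averaged under the filter's minimum count. Neither passed the filter through that line, which limits what its direction shows. Of 81 other pathway genes, 44 passed between the MEER lines (16 higher, 28 lower), 61 for SCCVII against HPV-negative MEER (30 higher, 31 lower) and 63 for SCCVII against HPV-positive MEER (35 higher, 28 lower).

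Macrophages were set against the line of the same tumour, a contrast in which most genes differ. HPV-negative MEER macrophages had more Dcn, Vcan and Cspg4 and less Bgn (-2.09 ± 0.31), Fmod, Sdc1 (-0.64 ± 0.15) and Gpc1 (-2.48 ± 0.29), 7 of 8 members tested where 76.1% of all genes were called. Fmod passed the filter there only through the HPV-negative MEER line, so its direction was set by the filter. The Vcan difference, 0.67 ± 0.29 (edgeR adjusted p = 0.048), was lost without HPV-negative MEER macrophage 1 (0.69, edgeR adjusted p = 0.073) or 4 (0.43, edgeR adjusted p = 0.212), without line aliquot 2 (0.64, edgeR adjusted p = 0.105) or 3 (0.46, edgeR adjusted p = 0.191), and in 4 other settings. HPV-positive MEER macrophages had more Bgn (2.55 ± 0.37) and Dcn (1.74 ± 0.74, edgeR adjusted p = 0.0409) and less Acan, Vcan (-2.19 ± 0.30), Sdc1 (-0.41 ± 0.15) and Gpc1 (-3.49 ± 0.30), 6 of 8 where 78.8% of all genes were called. The Dcn call was lost in 5 of the 6 fits that left out 1 of its libraries (1.28 to 1.85, edgeR adjusted p = 0.0584 to 0.134), all but that without line aliquot 3, and the Sdc1 call without macrophage 2 (edgeR adjusted p = 0.0965) or line aliquot 2 (edgeR adjusted p = 0.0641). SCCVII macrophages had more Cspg4 and less Bgn (-5.18 ± 0.32), Dcn, Vcan (-4.04 ± 0.33), Sdc1 (-0.52 ± 0.16) and Gpc1 (-7.12 ± 0.36), 6 of 8 where 73.0% of all genes were called. Bgn thus lay above the line in HPV-positive MEER macrophages and below it in macrophages of the other 2 tumours. Srgn averaged 457 CPM in SCCVII, 1289 CPM in HPV-positive MEER and 496 CPM in HPV-negative MEER macrophages, against 0.370, 0.118 and 0.128 CPM in their lines, and the syndecan Sdc3 averaged 1474, 1237 and 1019 CPM in these macrophages, against 6.61, 14.6 and 2.98 CPM in their lines. The basement membrane genes Hspg2 (perlecan) and Col18a1 went the other way, with Hspg2 at 1.62, 6.02 and 15.8 CPM in these macrophages and at 654, 338 and 344 CPM in their lines. Of 85 other pathway genes, 73 passed in SCCVII (30 higher, 43 lower), 64 in HPV-positive MEER (32 each way) and 69 in HPV-negative MEER (29 higher, 40 lower).

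Most members stood higher in colonies than in sorted macrophages of the same tumour. HPV-negative MEER colonies exceeded their macrophages in Bgn, Fmod, Vcan, Sdc1 and Gpc1 and were lower in Cspg4, 6 of 8 members tested where 62.7% of all genes were called. SCCVII colonies exceeded theirs in Bgn, Dcn, Lum, Vcan, Sdc1 and Gpc1 and were lower in Cspg4, 7 of 8 where 51.9% of all genes were called. Lum passed the filter only through SCCVII colonies and Fmod only through HPV-negative MEER colonies, so the rise of each there was set by the filter. Acan was under the filter in all colony comparisons. Of 8 other small leucine-rich genes tested, 7 were higher in HPV-negative MEER colonies (median log2 change 4.53) and 6 in SCCVII colonies (median 5.12). In both tumours 0 were lower. Only 2 of the 12 genes of this list passed the filter in macrophages alone. Most of the 8 thus entered through colonies, where they are high, so the direction of the list was largely set by the filter. Ogn averaged 178 ± 94.9 CPM in SCCVII colonies and 1.03 ± 0.154 CPM in SCCVII macrophages (edgeR log2 change 7.42, adjusted p = 0.00064). In HPV-negative MEER, Ogn averaged 78.7 ± 57.3 CPM in colonies and 0.601 ± 0.849 CPM in macrophages (edgeR log2 change 6.97, adjusted p = 0.00076). Srgn was lower, at 15.9 ± 11.9 CPM in SCCVII colonies, against 457 ± 26.7 CPM in SCCVII macrophages (edgeR log2 change -4.86, adjusted p = 0.0096). Of 90 other pathway genes, 63 passed in SCCVII (48 higher, 15 lower) and 70 in HPV-negative MEER (50 higher, 20 lower). Fibroblast marker sums were higher in colonies too, as given above.

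SCCVII colonies exceeded HPV-negative MEER colonies in Bgn, Dcn, Cspg4, Sdc1 (1.13 ± 0.24) and Gpc1 (1.61 ± 0.32) and were lower in Fmod, 6 of 8 members tested where 40.4% of all genes were called. Fmod passed the filter there only through HPV-negative MEER colonies, so its direction was set by the filter. Prelp was also lower, at 0.108 ± 0.0681 CPM in SCCVII and 88.3 ± 33.0 CPM in HPV-negative MEER colonies (edgeR log2 change -9.66, adjusted p = 0.0032). In the SCCVII colonies 3 counts correspond to 0.117 and 0.09 CPM. Prelp, like Fmod, thus did not pass the filter through them, which limits what its direction shows. Against the lines of the same tumour, HPV-negative MEER colonies were higher in Bgn, Dcn, Fmod, Vcan and Gpc1, 5 of 8 tested where 53.2% of all genes were called. SCCVII colonies were higher in Dcn, Lum, Sdc1 and Gpc1, 4 of 8 where 46.9% of all genes were called. Lum entered that fit only through SCCVII colonies, so it could not come out lower. No member passed as lower in colonies than in the line in either tumour. Fmod had 0 counts in SCCVII colonies and line, and Cspg4 was at most 0.673 CPM in HPV-negative MEER colonies and 0.343 CPM in the HPV-negative MEER line. Hspg2 averaged 227 ± 19.8 CPM in SCCVII colonies and 654 ± 41.2 CPM in the SCCVII line (edgeR log2 change -1.44, adjusted p = 0.00061). Of 90 other pathway genes, 40 passed between the colonies (20 each way), 47 between SCCVII colonies and line (37 higher, 10 lower) and 58 between HPV-negative MEER colonies and line (46 higher, 12 lower).

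**Figure D4:**
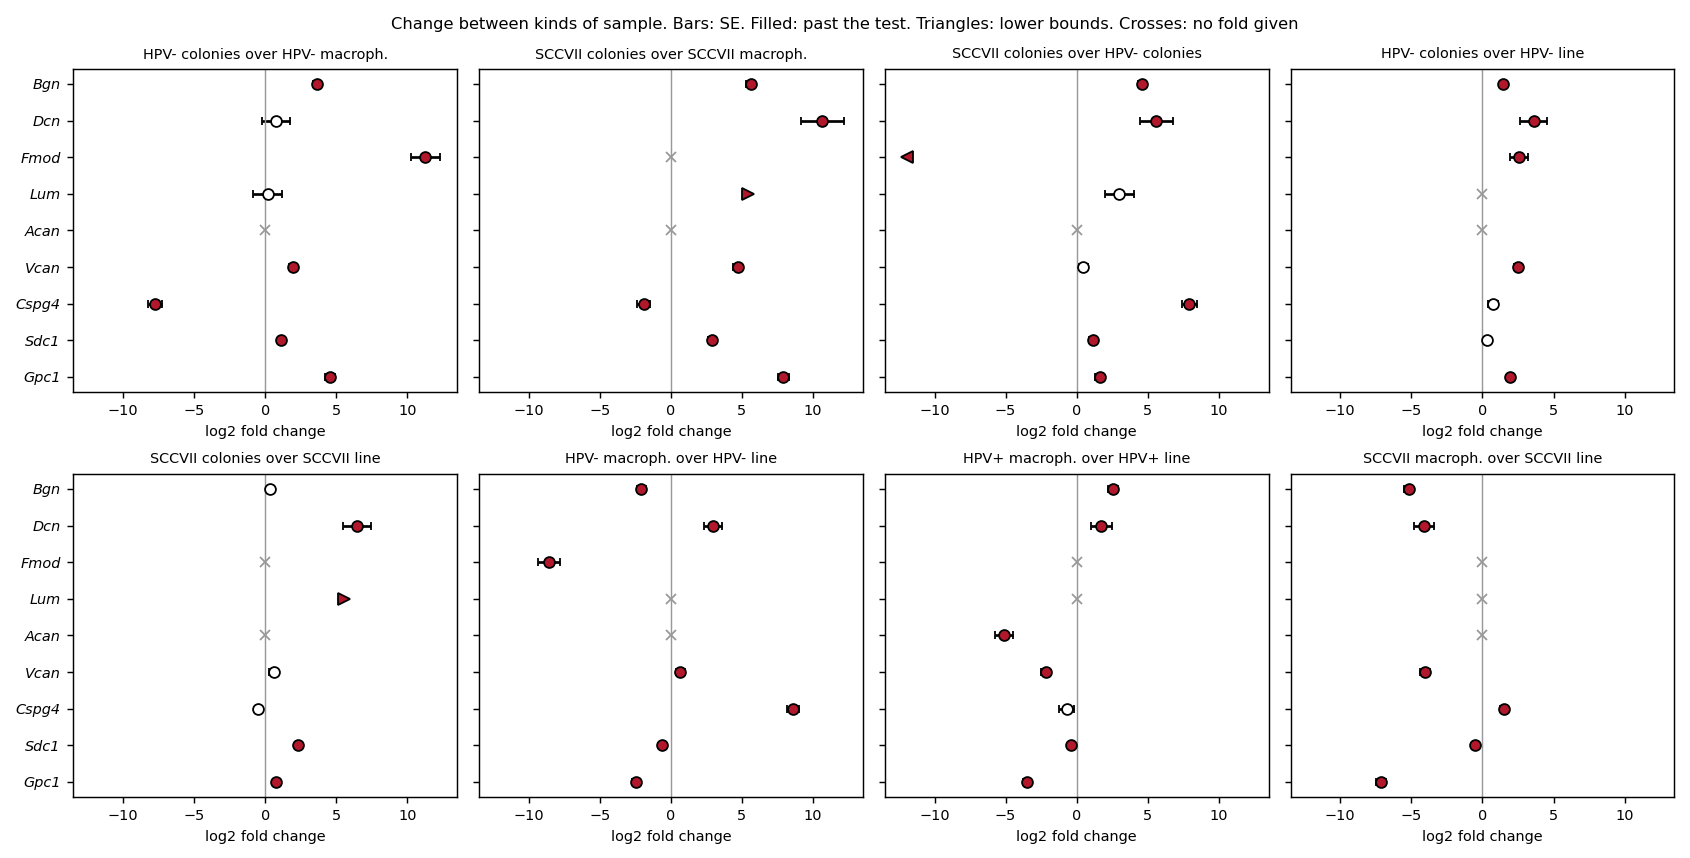
Log2 fold change of each member between sample kinds of the same tumour, with colonies over macrophages, colonies over lines and macrophages over lines, and of SCCVII over HPV-negative MEER colonies, bars for the SE, filled points past the test, triangles for lower bounds and crosses where no fold is given. Gpc1 is higher in colonies than in macrophages, by 7.91 in SCCVII and 4.54 in HPV-negative MEER, and lower in macrophages than in lines, with log2 changes of -7.12 in SCCVII, -3.49 in HPV-positive MEER and -2.48 in HPV-negative MEER.

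Whether the tumour model changed macrophages and lines differently was tested as an interaction. For HPV-positive against HPV-negative MEER, 4 of 8 members differed, where 41.0% of all genes were called. The macrophage difference minus the line difference was 4.63 ± 0.48 for Bgn (edgeR adjusted p = 1.64e-06), -2.86 ± 0.42 for Vcan (edgeR adjusted p = 4.83e-05), -9.31 ± 0.68 for Cspg4 (edgeR adjusted p = 4.54e-08) and -1.0 ± 0.39 for Gpc1 (edgeR adjusted p = 0.0497). The Cspg4 value was -9.95 without HPV-positive MEER macrophage 3. The Gpc1 call was lost in 8 of the fits that left out a library, at -1.09 to -0.54 (edgeR adjusted p = 0.0578 to 0.164). These were the fits without HPV-positive MEER macrophage 1, 2 or 3, HPV-negative MEER macrophage 4 (-0.54), HPV-positive MEER line aliquot 1 or 2 and HPV-negative MEER line aliquot 2 or 3. For SCCVII against HPV-negative MEER, 5 of the 6 members given a value differed, where 43.6% of all genes were called. The values were -3.09 ± 0.42 for Bgn (edgeR adjusted p = 2.20e-05), -7.11 ± 0.93 for Dcn (edgeR adjusted p = 1.64e-05), -4.71 ± 0.43 for Vcan (edgeR adjusted p = 3.56e-07), -7.10 ± 0.51 for Cspg4 (edgeR adjusted p = 1.99e-08) and -4.63 ± 0.41 for Gpc1 (edgeR adjusted p = 2.49e-07). The Dcn value was -6.08 without HPV-negative MEER macrophage 4 and -7.72 without SCCVII macrophage 1. Sdc1 gave 0.23 in the HPV comparison and 0.12 in the SCCVII comparison, and neither passed. In other pathway genes, 41 of 85 passed in the HPV interaction and 51 of 85 in the SCCVII interaction.

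Levels of different genes can be set beside each other in TPM, the deposited per-transcript abundance unit, which divides by transcript length. The 9 genes together averaged 1768 TPM in SCCVII colonies, 618 TPM in HPV-negative MEER colonies, 132 TPM in SCCVII macrophages, 81.9 TPM in HPV-positive MEER macrophages, 80.0 TPM in HPV-negative MEER macrophages, 1219 TPM in the SCCVII line, 458 TPM in the HPV-positive MEER line and 173 TPM in the HPV-negative MEER line. All macrophage means were below all colony and line means. The leading gene of the TPM sum varied with tumour and sample kind, and was Sdc1 in both MEER macrophage groups. Among macrophages, Cspg4 made up 68.2% in SCCVII, Sdc1 66.8% in HPV-positive MEER, and Sdc1 40.4% with Cspg4 27.0% in HPV-negative MEER. In SCCVII, Bgn made up 38.8% of the colony sum and 55.6% of the line sum, and Gpc1 32.1% of the colony sum and 35.0% of the line sum. HPV-negative MEER colonies were led by Gpc1 (43.0%) and Fmod (24.5%), the HPV-positive MEER line by Gpc1 (56.5%) and Sdc1 (27.9%), and the HPV-negative MEER line by Sdc1 (38.9%) and Gpc1 (36.2%).

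**Figure D5:**
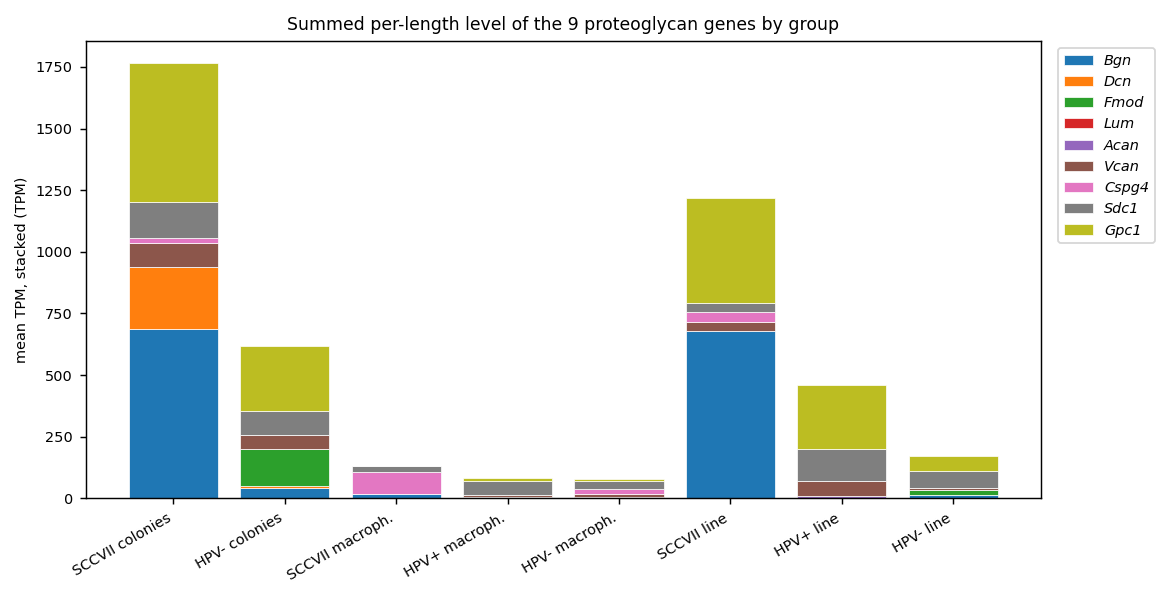
Mean TPM of the 9 proteoglycan genes, stacked, in each of the 8 groups, with colonies left, macrophages in the middle and lines right. The stacks reach 1768 TPM in SCCVII colonies and 80.0 to 132 TPM in the 3 macrophage groups.

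The genes most like each member were found by Pearson correlation of log2 group means over the 8 groups, among 11691 genes, as a description of shared pattern with no test. All 8 points share the same libraries and scaling. The nearest genes were Gm17709 (r = 0.996) and Il1rl1 (r = 0.985) for Bgn, Crct1 (r = 0.973) for Dcn, Stc1 (r = 0.996) for Fmod, Myo5b and Rpp25 (both r = 0.996) for Acan, Zfhx2 (r = 0.959) and Has2 (r = 0.954) for Vcan, Rrad (r = 0.975) for Cspg4, Tnfrsf23 (r = 0.973) for Sdc1 and Vsig10 (r = 0.994) for Gpc1. Il1rl1, the interleukin-33 receptor gene, averaged 521 CPM in SCCVII colonies, 12.7 CPM in SCCVII macrophages and 539 CPM in the SCCVII line, as Bgn averaged 1093, 22.5 and 896 CPM there. Has2, which makes the hyaluronan that versican binds, and Vcan both had their lowest mean in SCCVII macrophages and their highest in the HPV-positive MEER line, at 0.0680 and 35.7 CPM for Has2 and at 10.1 and 267 CPM for Vcan. Lum had no group mean of 10 CPM and was left out.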

How the data were processed

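Messenger RNA libraries were made with a TruSeq Stranded mRNA kit, per the labels' protocols. STAR 2.5.3a, RSEM 1.3.0, FastQC and MultiQC and the mm10 build are named in the submitters' processing notes; which gene annotation, read filter and strand setting were used is not given in the sources used here. The authors deposited 2 tables of RSEM output, with 20 and 3 libraries, each holding expected counts, TPM and abundance-weighted transcript length per Ensembl gene. The 3 libraries of the second table are the HPV-negative MEER colonies. Names came from an annotation table for 35243 of 36793 IDs (95.8%). Expected counts were rounded to whole numbers, which touched 2 of 207 member values.

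Counts were tested with edgeR 4.0.16 in R 4.3.3 (TMM, filterByExpr with a minimum count of 10 and a minimum total of 15, prior count 0.125, quasi-likelihood F test, Benjamini-Hochberg threshold 0.05). Macrophages and lines were fitted apart for comparisons of tumour models (9 libraries each), together for comparisons of the 2 (18 libraries), and colonies with macrophages or lines of SCCVII and HPV-negative MEER (11 libraries each). Groups in a fit share an estimate of spread, although replicates differed unequally. The chi-square per gene between libraries of a group was 46.8 to 386 in colonies, 6.44 to 91.2 in macrophages and 3.23 to 93.8 in line aliquots. Where steadier and more variable groups were fitted together, p-values rest on a spread drawn from both. The SE is the absolute log2 change divided by the square root of F. A fold against a group at 0 is a bound with 3 counts over the group. Replicate numbers were not taken to pair the samples, since the labels tie no samples together by number. Same-numbered samples did not all deviate together. In macrophages, though, 7 of the 8 libraries with a same-numbered partner correlated best with their own number, against 2 of 9 in lines. Alternatives were DESeq2 1.42.0, RLE scaling, no filter, a fit of only the groups compared, a fit of all 23 libraries, a replicate block and leaving out each library. The steps were tested on simulated counts with the real means of the reference group, the same spread for every gene and few changed genes. Error rates in the real data may therefore differ. Between HPV-positive and HPV-negative MEER macrophages 45 of 50 genes changed 2-fold were recovered, with 7 false calls among 13818 genes. Between HPV-negative MEER colonies and macrophages 2 of 50 were recovered. All 9 members are named in every comparison. From each other pathway list, named genes come from the 2 largest called rises and the 2 largest called falls with a mean of 10 CPM or more in the higher group. The members and lists were chosen with earlier results of these data known.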

Additional observations from a re-analysis of the deposited data

Results flagged for a closer look

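For 9 member results the difference between 2 tumour models was itself different in macrophages and in lines, by the interaction test of edgeR with Benjamini-Hochberg adjustment. In the contrast of HPV-positive with HPV-negative MEER, the macrophage difference minus the line difference was 4.63 for Bgn, -2.86 for Vcan, -9.31 for Cspg4 and -1.0 for Gpc1. The Gpc1 result (edgeR adjusted p = 0.0497) is weak. It lost the call in 8 fits that left out a library, with RLE scaling (edgeR adjusted p = 0.0634) and with a replicate block (edgeR adjusted p = 0.259). Bgn was lower in the HPV-positive line (-3.91) and missed the threshold in macrophages (0.72), though it passed there with a replicate block. Cspg4 was higher in the HPV-positive line (1.65) and lower in macrophages (-7.67). In the contrast of SCCVII with HPV-negative MEER, it was -3.09 for Bgn, -7.11 for Dcn, -4.71 for Vcan, -7.10 for Cspg4 and -4.63 for Gpc1. Dcn, Vcan and Gpc1 had opposite signs there, lower in SCCVII macrophages (-4.27, -2.29 and -1.77) and higher in the SCCVII line (2.78, 2.36 and 2.80).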

How the results depend on the processing

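Of 93 member calls, 86 kept call and direction under every setting that gave them an adjusted p. Another 7 lost the call under at least 1 setting, and none reversed. Of the 23 changes that did not pass, 14 passed under at least 1 setting. The 7 were Gpc1 in 3 comparisons, Sdc1 in 2, and Vcan and Dcn in 1 each. DESeq2 gave no adjusted p for Dcn in the 5 colony comparisons. The Dcn calls made there are among the 86, but were not checked by DESeq2. Between HPV-positive and HPV-negative MEER macrophages 6853 genes were called, and 3708 in a fit of all 23 libraries. For SCCVII against HPV-negative MEER macrophages the counts were 5527 and 2944. For SCCVII against HPV-negative MEER colonies they were 6554, and 3252 in a fit of those 2 groups, without the macrophages whose spread the main fit shared. Signs turned only in changes that did not pass. Vcan between HPV-positive and HPV-negative MEER macrophages (0.12) was -0.07 without HPV-negative MEER macrophage 2 and -0.04 without HPV-positive MEER macrophage 2, and at most 0.38 without any other. In HPV-negative MEER colonies against macrophages, Dcn (0.77) was -0.89 without colony 3 and at most 1.85 otherwise, and Lum (0.19) was -1.60 without colony 1, -0.02 without macrophage 1 and at most 0.69 otherwise. Sdc1 in the SCCVII interaction (0.12) was -0.04 without HPV-negative MEER macrophage 1 and at most 0.40 otherwise. The cause was not tested.

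With a replicate block, 97 member changes were called, against 93 without it. Nothing in the labels ties samples of the same number together. Among macrophages, same-numbered samples deviated together with a correlation of -0.02 to 0.12 (median 0.09), against a median of -0.02 for other pairs, and 7 of 8 libraries correlated best with their own number, a hint of pairing from the data. Among lines it was 2 of 9. Only HPV-negative MEER macrophage 4 carried the number 4. The block therefore gave this library a term of its own and in effect took it out of the contrasts. Under the block the Gpc1 interaction for HPV was -0.42 (edgeR adjusted p = 0.259), against -0.54 without that library. Vcan in HPV-negative MEER macrophages against the line was 0.32 (edgeR adjusted p = 0.309), against 0.43 without it. Bgn between HPV-positive and HPV-negative MEER macrophages was 1.03 under the block (edgeR adjusted p = 0.0051). Depth limits Lum, Fmod in macrophages and Acan outside HPV-positive samples, where a few counts decide a value.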
